A study of Mus musculus with 10 samples.

Results

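The Rxfp1/Oprk1 nuclei were 150 of 5966 nuclei of mouse prefrontal cortex, and of 11624 nuclei in all, that carried transcripts of a small group of receptor, adhesion and matrix genes. A nucleus was taken when it held at least 2 unique molecular identifiers (UMIs, each standing for 1 captured transcript) from at least 2 of 7 gate genes, Rxfp1, Oprk1, Igsf21, Adamts18, Ccdc80, Rasl10a and Bmp3. It also had to hold no UMI of Gad1 or Gad2, which make the inhibitory transmitter, and none of Syt6, Rprm, Foxp2, Fezf2, Otof and Scube1. The members were chosen by their measured UMIs of these genes, and the gate genes came from earlier results of the same table, so their levels below are a description and were not tested. The working name of the set was deep cortical excitatory nuclei. The data met that name only in part, since several glial clusters met the gate at about the same share as the cortex as a whole, and the nuclei are called here by the gate.

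Rxfp1 encodes the receptor for relaxin, a peptide hormone, and Oprk1 encodes the kappa opioid receptor, which answers to dynorphins. Both are G protein-coupled receptors. Igsf21 is a synaptic adhesion protein, Adamts18 a secreted metalloprotease, Ccdc80 a matrix-associated protein, Rasl10a a small GTPase and Bmp3 a bone morphogenetic protein ligand. Excitatory neurons of the deep cortical layers fall into classes by the target of their axons. Corticothalamic neurons project to the thalamus and express Syt6 and Foxp2, near-projecting neurons stay local, subcerebral neurons leave the forebrain, and intratelencephalic neurons project to other cortex and striatum.

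The nuclei were profiled by DroNc-seq, in which single nuclei and barcoded beads meet in droplets. The tissue was hippocampus and prefrontal cortex of C57BL/6 mice, microdissected, flash frozen and kept as archived tissue, with no treatment or genotype difference in the labels. The series design names 4 mouse brain tissues and 2 regions. There were 5 cortical libraries, with titles numbered 0 to 3 and with number 0 in a library a and a library b. These were summed per number to 4 units, each of which gave 1 value for every set of nuclei. The labels do not tie a number to a mouse, nor give age or sex, so the spread between units may be technical. The p-values rest on that spread, mostly as pooled over genes.

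The 5 cortical libraries held 1807068 to 2600788 UMIs in 623 to 1626 nuclei. Unit 0 was the deepest, with 2496 UMIs in the median nucleus outside the set against 1098.5 to 1300 in units 1 to 3. Pairs of cortical libraries shared at most 3 cell barcodes, and none of these belonged to an Rxfp1/Oprk1 nucleus. Unit 2 stood apart in the set itself. A total of 227 of its 231 UMIs of 9 endothelial and mural genes came from 2 of its 34 nuclei, and 1 nucleus held 10 or more, whereas units 0, 1 and 3 had 23, 3 and 3 such UMIs. Counts of genes are therefore given below with and without unit 2.

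The gate took nearly the same share of nuclei in every cortical unit. It was 2.482% in unit 0, 2.460% in unit 1, 2.466% in unit 2 and 2.640% in unit 3, a mean of 2.51% ± 0.0859 (SD, n = 4). The exact 95% binomial intervals of the units ran from 1.713% at the lowest to 3.552% at the highest and covered counting error only. The 4 units did not differ beyond those intervals. The Rxfp1/Oprk1 nuclei were deeper than the rest of their unit, with median UMIs of 2780, 1393, 1554.5 and 1275 in units 0 to 3. When every nucleus of at least 1000 UMIs was thinned to 1000, the share was 1.57% ± 0.356 (SD, n = 4), from 1.245% in unit 0 to 2.000% in unit 3. The thinned share was lowest in unit 0, whose nuclei were the deepest before thinning.

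In hippocampus 26 of 5658 nuclei met the same gate, a share of 0.4595% with an exact 95% interval of 0.300% to 0.673%. The share was 0.632%, 0.569%, 0.188% and 0.257% in units 0 to 3, each below every cortical unit. Cortical clusters of glial and vascular nuclei, which should lack most of the gate genes, met the gate at shares on both sides of the cortical mean. The share was 0.820% in the cluster led by the myelin gene Mag (2 of 244 nuclei, median 1494 UMIs) and 2.08% in the endothelial one led by Flt1 (4 of 192). It was 2.57% in the astrocyte cluster led by Slc7a10 (10 of 389, median 1657 UMIs), 2.60% in the oligodendrocyte precursor cluster led by Gpr17 (2 of 77) and 2.82% in the microglial cluster led by Siglech (2 of 71). The cluster led by the astrocyte gene Gfap had 1.52% (1 of 66), and the one led by Ptgds 0 of 91. The cortical share takes in these clusters and lay within their range, which rests on few members in most of them. It is not read here as the share of a cell type. A gate of 3 UMIs from 3 genes took 22 cortical nuclei, or 0.369%, and 1 hippocampal nucleus, or 0.0177%. The hippocampal nuclei that met the gate held 157 UMIs of Zbtb20, a transcription factor of hippocampal neurons, and 12 of Prox1, a dentate granule cell gene, whereas the cortical set held 32 Zbtb20 UMIs in about 4 times the total UMIs. The level in other hippocampal nuclei was not compared.

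**Figure D1:**
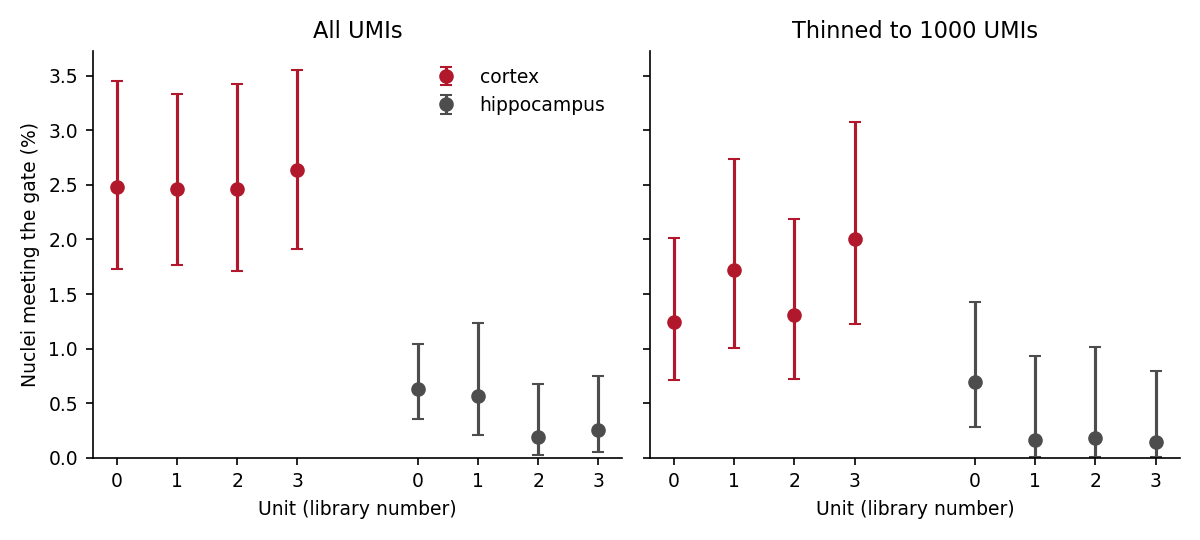
Share of nuclei that met the gate (vertical axis, percent) in each unit of cortex (red) and hippocampus (grey), with all UMIs (left) and after thinning to 1000 UMIs (right). Bars are exact 95% binomial intervals. With all UMIs the cortical units lay between 2.460% and 2.640% and the hippocampal units between 0.188% and 0.632%.

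Most members stood close to the threshold of the gate. Of the 150 nuclei, 128 held exactly 2 gate genes, 17 held 3, 3 held 4 and 2 held 5. By UMIs, 85 held 2, 34 held 3 and 31 held 4 or more, with 11 as the most. Just outside were 617 nuclei with 1 gate gene and no excluded gene, 531 of them with 1 UMI, and 285 of the 617 had only Rasl10a. Before the exclusions 340 cortical nuclei had passed the gate. A Gad1 or Gad2 UMI removed 80 and an excluded gene removed 110 more, of which 57 carried Scube1, 34 Fezf2, 30 Otof, 22 Rprm, 20 Syt6 and 11 Foxp2, some of them several.

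Rasl10a and Rxfp1 carried the gate. Rasl10a was seen in 90 members, Rxfp1 in 81, Igsf21 in 65, Oprk1 in 31, Adamts18 in 30, Ccdc80 in 20 and Bmp3 in 12. Rxfp1 gave the most transcripts, 159 UMIs with up to 8 in 1 nucleus, and was in 25, 24, 12 and 20 members of units 0 to 3. Oprk1 was in 6, 8, 11 and 6. Unit 2 thus had the fewest members with Rxfp1 and the most with Oprk1. Bmp3 was in none of the members of unit 0. Outside the set Rasl10a was also the commonest gate gene, in 662 nuclei or 11.4%, and Oprk1 the rarest, in 57 or 0.980%. The pair seen together most often was Rxfp1 with Rasl10a, in 36 members, followed by Igsf21 with Rasl10a in 35 and Rxfp1 with Igsf21 in 24. The receptors Rxfp1 and Oprk1 met in 14 nuclei. Without Rasl10a, 76 of the 150 still passed. By GENCODE on mm10, Rxfp1 is a protein-coding gene at chr3:79641611-79737880 and Oprk1 one at chr1:5588466-5606131.

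The members did not form 1 cluster. Cortical nuclei were clustered without the gate, excluded and comparator genes, and the 150 members fell into 19 of 21 clusters. The cluster richest in them was cluster 14, with 20 members among 170 nuclei, or 11.8% with an exact 95% interval of 7.34% to 17.6%. Its leading genes were Chrm2, a muscarinic acetylcholine receptor, the cadherin Cdh9, Galnt14 and the transcription factor Onecut2. Its summed layer 6 intratelencephalic genes were 2.34 times those of the other clusters, and Cdh9 alone gave that difference: without it the other 7 genes summed to 103.6 CPM against 100.3 CPM. Cluster 2, with Ighm, Hs3st4, Col12a1 and Col6a1 among its 10 leading genes, held the largest number of members, 29, which were 4.42% of its 656 nuclei. It also held 53.9% of the Syt6/Foxp2 nuclei, against 1.18% in cluster 14. A cluster led by the immediate early genes Fosb and Fos had 12 members of 222 nuclei. The clusters rich in glial, vascular or interneuron genes, defined as at least 3 times the level of the other clusters, numbered 10 and held 24 members. Of these 10 were in unit 0, 8 in unit 1, 4 in unit 2 and 2 in unit 3. Leaving the 10 clusters out took the other cortical nuclei from 1336, 1586, 1345 and 1549 in units 0 to 3 to 845, 1149, 952 and 1120. That was a larger part than of the members in every unit. The rule barred Gad1 and Gad2 UMIs from the members only, so a small part of them in interneuron clusters was fixed in advance. The clusters led by the interneuron genes Tac1, Adarb2 and Sst held 0 members of 256 nuclei, 2 of 204 and 1 of 184. A nearest-neighbour doublet caller, set to mark 10% of each library, marked 29 members.

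**Figure D2:**
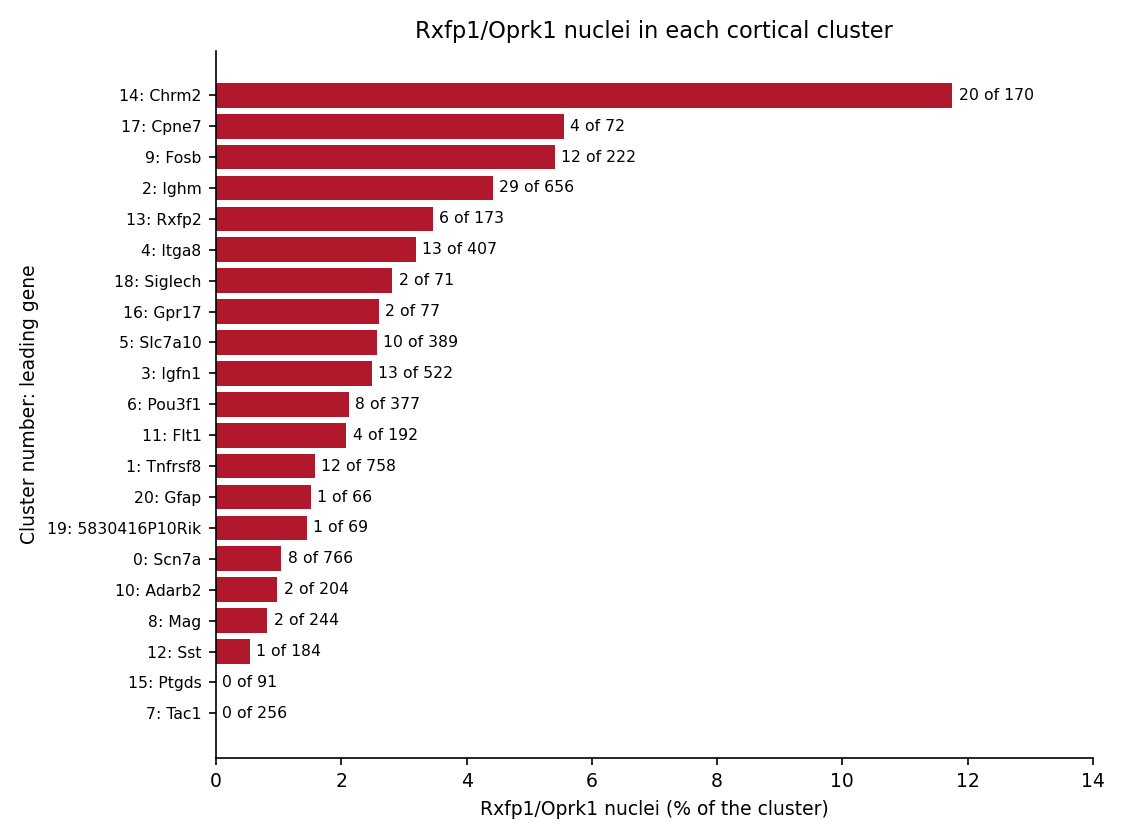
Share of each of the 21 cortical clusters that met the gate (horizontal axis, percent of the cluster's nuclei), with the cluster number and its leading gene on the vertical axis and the counts beside the bars. Cluster 14 stands highest at 11.8%, and the clusters led by Tac1 and by Ptgds held 0 members.

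The gate genes themselves were high in cluster 14, though not in every unit. Oprk1 stood at 56.1 CPM (the UMIs of a gene over all UMIs of the nuclei, scaled to a common total), the highest of the 21 clusters, and ranked 1, 1 and 2 in units 1, 2 and 3, with 0 UMIs in unit 0. Rxfp1 stood at 164 CPM and ranked 3 over all units. These values share the nuclei and the gate and are a description. At a coarser resolution of 1.0 the richest cluster was the one that held 57.5% of the Syt6/Foxp2 nuclei, with 50 members of 885 nuclei or 5.65%. At a resolution of 2.5 it was a cluster of 154 nuclei with 21 members, or 13.6%.

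The nearest deep set, the Syt6/Foxp2 nuclei, was compared first. These were 254 nuclei, 57, 73, 47 and 77 in units 0 to 3, with at least 1 UMI of Syt6, Rprm or Foxp2, no gate gene and no UMI of Gad1, Gad2, Otof or Scube1. Counts were summed per unit and set and tested with edgeR's quasi-likelihood test with the unit as a block. A gene was called when its Benjamini-Hochberg adjusted p was under 0.05. Of 1768 genes tested 18 were called, 1.02%, with 9 higher and 9 lower in the Rxfp1/Oprk1 nuclei (0.509% each). The 4 units of the sets did not overlap in 4.41% of the genes, 2.21% in each direction. Levels in the comparisons are CPM on the effective library size (TMM), those by cluster, gate gene or number of gate genes are plain CPM, and changes as log2 ± standard error.

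Higher genes included the cytoskeletal adaptor Sorbs2, the synaptic zinc transporter Slc30a3, the actin-binding tropomyosin Tpm1 and the cadherin Cdh10. Sorbs2 stood at 1425, 1215, 1330 and 1332 CPM in units 0 to 3 of the Rxfp1/Oprk1 nuclei and at 816, 728, 786 and 652 CPM in the Syt6/Foxp2 nuclei. No unit of the sets overlapped, and the change was 0.83 ± 0.13 (adjusted p = 5.9e-05). The level in nuclei with none of the 7 gate genes, Gad genes or excluded genes was 1173 CPM, so Sorbs2 was also above its Syt6/Foxp2 level outside the set. Cdh10 showed the largest rise, 1.43 ± 0.38 (adjusted p = 0.0403), from 43.7 to 84.3 CPM in the Syt6/Foxp2 units to 124 to 240 CPM. Its call was kept in 1 of the 7 alternatives that tested it and was lost without unit 2 or unit 3. Tpm1 rose by 1.33 ± 0.28 (adjusted p = 0.00796), from 59.3 to 179 CPM to 221 to 465 CPM. Slc30a3, which loads zinc into glutamate vesicles, was at 176 to 224 CPM against 63.3 to 163 CPM, with unit 2 the high one of the Syt6/Foxp2 nuclei. In nuclei with no gate gene Slc30a3 was at 186 CPM and Tpm1 at 238 CPM, near or somewhat below the set. The Slc30a3 call was lost after removal of the glial, vascular and interneuron clusters (1.22, adjusted p = 0.0629). Cpne9, a calcium-dependent lipid-binding protein, Wipf3, an actin regulator, Tenm4, a synaptic adhesion protein, and Slc20a1, a phosphate transporter, rose by 0.87 to 1.31. Malat1, a nuclear non-coding RNA, rose by 0.20 ± 0.04.

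Lower genes were led by Garnl3, a corticothalamic list gene that encodes a GTPase-activating protein. It stood at 301, 248, 144 and 337 CPM in units 0 to 3 of the Rxfp1/Oprk1 nuclei and at 1050, 485, 474 and 612 CPM in the Syt6/Foxp2 nuclei. Every unit of the first set lay below every unit of the second, and the change was -1.36 ± 0.20 (adjusted p = 5.24e-05). In nuclei with none of the gate, Gad or excluded genes Garnl3 was at 240.5 CPM, near the 267 CPM of the set. The Syt6/Foxp2 nuclei, which were chosen for Syt6, Rprm or Foxp2, were thus the high ones. Garnl3 lies at chr2:32986224-33131654 of mm10. Fut9, a fucosyltransferase that makes a cell-surface sugar epitope, fell by 0.98 on the log2 scale (SE 0.18, adjusted p = 0.000905), from 637 to 896 CPM to 272 to 498 CPM. The immediate early gene Egr1 had the largest fall, 1.57 on the log2 scale (SE 0.40), from 63 UMIs to 17. Its call was kept in 1 of the 9 alternatives that tested it. It was lost without any 1 unit and after removal of the glial, vascular and interneuron clusters. Sept4, Me3 and Ahi1 also fell without overlap between units, and Ndst3, Pcdh9 and 3110035E14Rik fell with overlap.

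**Figure D3:**
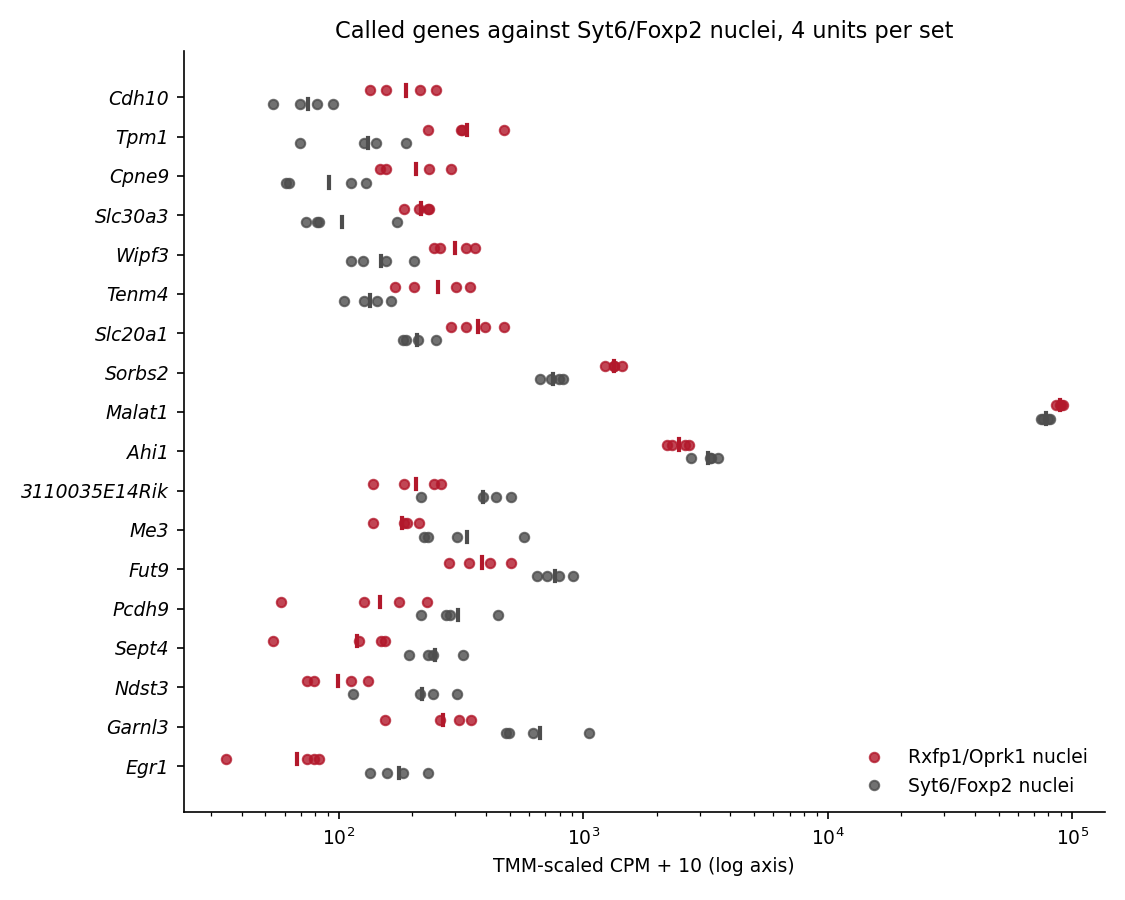
TMM-scaled CPM plus 10 (log axis) of the 18 called genes in the Rxfp1/Oprk1 nuclei (red) and the Syt6/Foxp2 nuclei (grey); each point is 1 of 4 units and each bar a mean. Units overlap in Ndst3, Pcdh9 and 3110035E14Rik and lie apart in the other 15, such as Sorbs2 at 1215 to 1425 CPM against 652 to 816 CPM.

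The number of calls depended on the units fitted, while the changes moved less. Without unit 0 the sets gave 1 called gene, Malat1. There Garnl3 changed by -1.10 (adjusted p = 0.217), Sorbs2 by 0.85 (adjusted p = 0.054) and Fut9 by -1.08 (adjusted p = 0.114). Without unit 3 there were 3, Fut9, Garnl3 and Sorbs2, and the same 3 held without the unit as a block. Without unit 2 there were 48 called genes, 16 of them among the 18. DESeq2 called 0 genes, with 36 at an unadjusted p under 0.05 against 177 by edgeR. With a gate of 3 UMIs from 3 genes, which left 22 nuclei, 2 genes were called, and Garnl3 was 1 of them at -1.98.

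The layer lists of this comparison were low in tested genes, so their summed levels are given. The Syt6/Foxp2 nuclei were chosen for a UMI of Syt6, Rprm or Foxp2, and the set for having none. Lower corticothalamic levels in the set were thus in part fixed in advance. Fezf2 was excluded from the set only, so the other sums were not taken under equal exclusions either. The 12 corticothalamic genes, which are not themselves genes of the rule, summed to 321 to 688 CPM in the Rxfp1/Oprk1 units and 1141 to 1837 CPM in the Syt6/Foxp2 units. Only Garnl3 of them passed the count filter. Among those that did not, Tle4, a transcriptional corepressor of corticothalamic neurons, had 5 UMIs against 54, and Hs3st4, a heparan sulfate enzyme, 2 against 31. The 8 layer 6 intratelencephalic genes summed to 179 to 192 CPM against 81.6 to 127 CPM, apart in every unit, from 60 and 42 UMIs. Without Cdh9 the ranges overlapped, at 69.0 to 146 CPM against 51.0 to 74.2 CPM, though the set was the higher within every unit. Subcerebral genes summed to 152 to 208 CPM against 284 to 356 CPM. Their transcription factor Bcl11b was at 55.2 to 87.8 CPM against 133 to 221 CPM, a change of -1.26 ± 0.34 that missed the threshold (adjusted p = 0.0542). Astrocyte genes overlapped (907 to 2916 CPM against 1067 to 3032 CPM), as did endothelial and mural genes (41.4 to 3701 CPM against 112 to 1216 CPM, unit 2 the highest in both). When the 10 glial, vascular and interneuron clusters were removed from both sets, 28 genes were called, 11 of them among the 18, and Garnl3, Fut9, Sorbs2, Tpm1, Tenm4 and Wipf3 remained.

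The second comparison set the Rxfp1/Oprk1 nuclei against 1118 other excitatory nuclei with an Slc17a7 UMI, a vesicular glutamate transporter of excitatory neurons, with no Gad UMI and no gate gene. The Slc17a7 UMI was required of the comparator only, and 69 of the 150 members held one, so the 2 sets were not chosen alike. Of 5798 genes 9 were called, 0.155%, with 2 higher (0.0345%) and 7 lower (0.121%). The units did not overlap in 3.93% of the genes, 1.71% higher and 2.22% lower. The higher genes were Col6a1, a chain of the matrix protein collagen VI, and Akap6, a scaffold that holds protein kinase A near the nuclear envelope. The lower genes included Cux2 and Rasgrf2 of the upper layers and Etv1 of the near-projecting list.

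Col6a1 was the firmest difference. It stood at 436, 390, 391 and 352 CPM in units 0 to 3 of the Rxfp1/Oprk1 nuclei and at 95.8, 182, 126 and 161 CPM in the other excitatory nuclei. The lowest unit of the first lay well above the highest of the second. The change was 1.56 ± 0.20 (adjusted p = 4.19e-07, 129 UMIs in the set), higher in 4 of 4 units. Leaving out any 1 unit kept the call, with changes of 1.27 to 1.70, and so did DESeq2 at 1.55 and the fit without a replicate block at 1.51. The call was lost in 1 of 16 alternatives, when nuclei with a glial or vascular UMI were removed from both sets (1.19, adjusted p = 0.136, over 92 members). Removing the glial, vascular and interneuron clusters instead kept it, at 1.52. Against the Syt6/Foxp2 nuclei Col6a1 did not pass (0.37 ± 0.22, adjusted p = 0.634), with 200 to 452 CPM there and overlapping units. Col6a1 lies at chr10:76708792-76726168 of mm10.

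Col6a1 also followed the number of gate genes. Among cortical nuclei without a Gad or excluded gene it stood at 121 CPM with 0 gate genes, 157 CPM with 1, 354 CPM with 2 and 589 CPM with 3 or more, from 400, 172, 95 and 34 UMIs. Nuclei with 1 gate gene lay above those with none in each of the 4 units, with exact 95% Poisson intervals of 134.8 to 182.8 and 109.3 to 133.3 CPM. With 2 gate genes all 4 units were between 333 and 370 CPM, and with 3 or more unit 3 was at 280 CPM, from 3 UMIs, and units 0 to 2 were at 624 to 726 CPM. By cluster, where Col6a1 was among the genes used for clustering and the values are a description, the level was 647 CPM in the 29 members of cluster 2, 164 CPM in the 20 of cluster 14 and 377 CPM in the rest, with exact 95% Poisson intervals of 445 to 909, 60.1 to 356 and 303 to 464 CPM. The members that held Adamts18 had 599 CPM and those with the other gate genes 380 to 424 CPM.

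**Figure D4:**
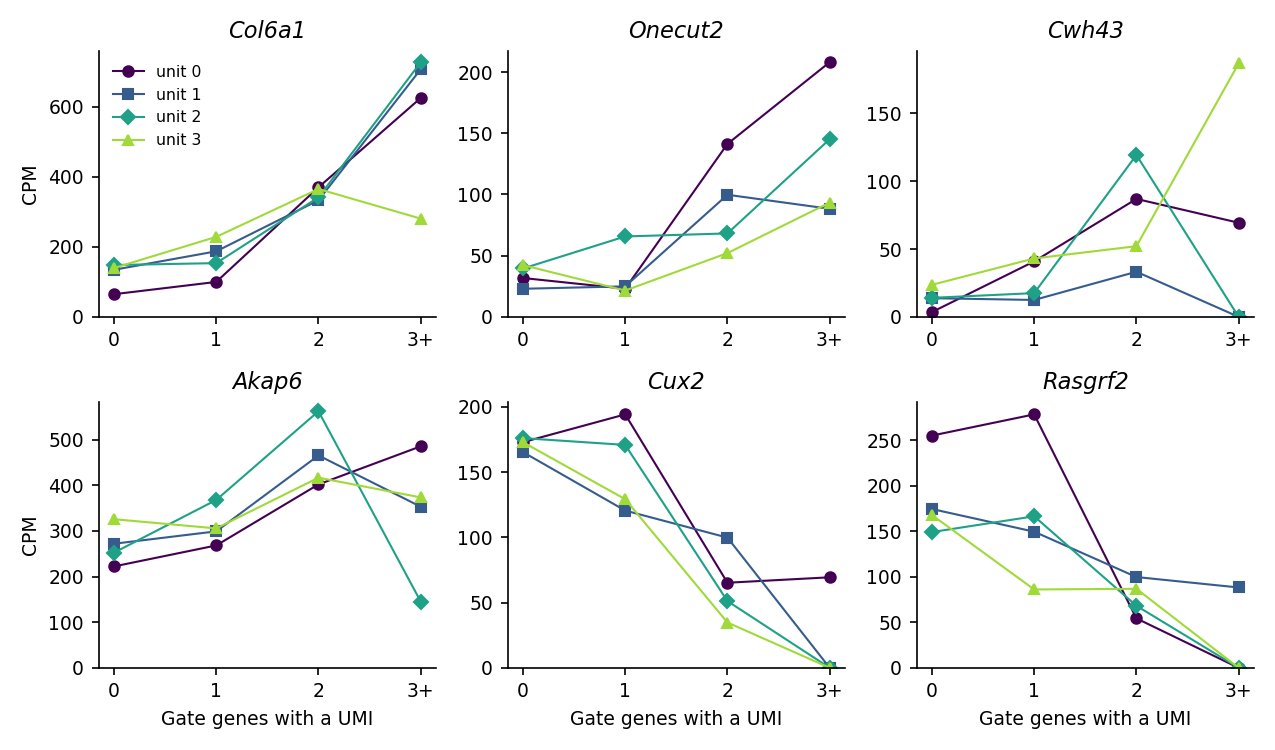
CPM (vertical axes, from 0) of 6 genes against the number of gate genes with a UMI (horizontal axes) in cortical nuclei without a Gad or excluded gene; each line is 1 of 4 units. Col6a1 rises from 64.7 to 148 CPM with 0 gate genes to 333 to 370 CPM with 2, while Cux2 stands at 165 to 176 CPM with 0 and 34.7 to 99.8 CPM with 2; the points at 3 or more rest on 22 nuclei.

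Akap6 rose to 428, 446, 532 and 411 CPM from 239, 300, 268 and 279 CPM, apart in every unit, a change of 0.75 ± 0.17 (adjusted p = 0.0351). Its call held in 4 of 16 alternatives and was lost without any 1 of the 4 units. Layer 6 intratelencephalic genes summed to 181 to 191 CPM in the set and 87.2 to 149 CPM in the other excitatory nuclei, and without Cdh9 they overlapped, at 69.7 to 147 CPM against 56.4 to 114 CPM. The only one of the 8 that passed the count filter was Cdh9, at 92.3, 112, 78.3 and 44.0 CPM against 17.2, 42.5, 37.6 and 35.5 CPM. Its units lay apart, which was true of 1.71% of all genes tested in that direction, and its adjusted p was 0.130. Claustrum genes overlapped (277 to 704 CPM against 244 to 422 CPM) and layer 5 intratelencephalic genes overlapped too (167 to 266 CPM against 125 to 184 CPM).

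Upper-layer genes were lower as a group. Of 15 genes 10 were tested, 9 had a negative change and 2 were called, with a median of -1.13 against 0.01 over all genes tested. Cux2, a transcription factor of the upper layers, stood at 67.1, 83.6, 47.0 and 29.4 CPM against 176, 137, 169 and 130 CPM. The sets did not overlap in any unit, and the change was -1.41 ± 0.32 (adjusted p = 0.0351). Rasgrf2, an exchange factor for Ras of the upper layers, stood at 42.0, 97.6, 62.6 and 73.4 CPM against 228, 135, 153 and 123.1 CPM, a change of -1.34 ± 0.31 (adjusted p = 0.0454). Lamp5, a membrane protein of upper-layer neurons, missed the threshold at -1.19 ± 0.30 (adjusted p = 0.0961). The excluded genes Otof and Scube1 had been removed from the set and not from the comparator. With the comparator under the same exclusions Cux2 and Rasgrf2 stayed called, at -1.72 and -1.64, as did Col6a1, Akap6 and A830036E02Rik. Ndst3 lost its call there (-1.04, adjusted p = 0.124), and the remaining 3 of the 9 did not pass the count filter. Both calls were lost without unit 0 and without unit 3, and that of Cux2 also without unit 2.

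Etv1, a transcription factor of the near-projecting list, and Plk5, a polo-like kinase, were seen in few copies. Etv1 had 2 UMIs in the set, 0, 1, 0 and 1 in units 0 to 3, against 127. The pooled ratio was 9.32-fold lower with an exact 95% counting interval of 2.53 to 77.8. Plk5 also had 2 UMIs, against 126, a ratio of 9.25 (2.51 to 77.2). Near-projecting genes summed to 55.8 to 110 CPM against 122 to 156 CPM, apart in every unit. Etv1 is 1 of these genes and gave 127 of the 330 UMIs of the comparator and 2 of the 26 in the set. The sum without Etv1 was not taken, and Fezf2 was excluded from the set only. Ndst3, a heparan sulfate enzyme, fell by 1.26 on the log2 scale (SE 0.26, adjusted p = 0.0245), from 194 to 270 CPM to 62.6 to 126 CPM. The antisense gene A830036E02Rik fell by 0.72, with overlapping units, and since the strand setting of the counting is not given its reads cannot be told apart from those of its partner. The globin gene Hbb-bs, a blood transcript with near-identical copies, was called at -2.04 ± 0.43 (adjusted p = 0.0263) with overlapping units, from 9 UMIs in the set, 0 of them in unit 3.

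**Figure D5:**
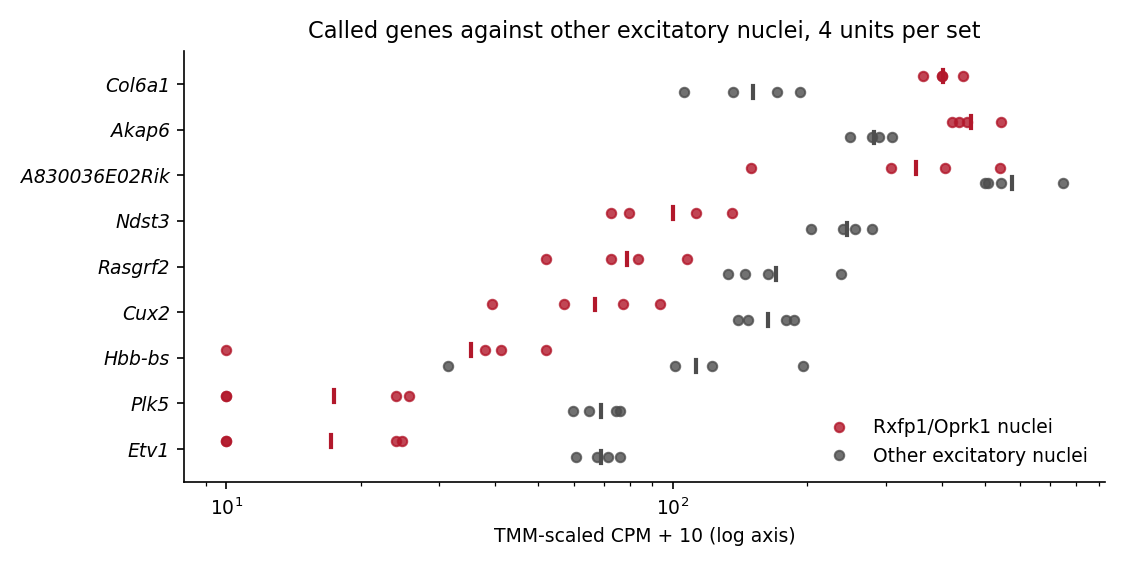
TMM-scaled CPM plus 10 (log axis) of the 9 called genes in the Rxfp1/Oprk1 nuclei (red) and the other excitatory nuclei (grey); each point is 1 of 4 units and each bar a mean. Col6a1 and Akap6 lie higher in every unit, and the points at 10 are units with 0 UMIs.

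The count of calls moved with single units here as well. Without units 0, 1, 2 and 3 it was 2, 5, 15 and 1, and Col6a1 was among them each time. Without the unit as a block it was 1, by DESeq2 1, and after removal of nuclei with glial or vascular UMIs 1, which was not among the 9. Astrocyte genes summed to 910 to 2849 CPM in the set, with unit 2 the highest, and to 982 to 1523 CPM in the comparator, with unit 0 the highest. Endothelial and mural genes summed to 193, 41.8, 3616 and 44.0 CPM in units 0 to 3 of the set and to 282 to 892 CPM in the comparator. Interneuron genes summed to 103 to 265 CPM against 196 to 247 CPM, and Slc32a1, Pvalb, Lhx6 and Nxph1 were at 0 in the set. The part of these nuclei in the 9 calls was tested by leaving out the 10 glial, vascular and interneuron clusters, which gave 11 calls, of which Col6a1, Akap6, Cux2, Ndst3 and A830036E02Rik were among the 9.

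Against all 5816 other cortical nuclei 37 of 11041 genes were called, 0.335%, with 4 higher (0.0362%) and 33 lower (0.299%). The units did not overlap in 7.53% of the genes, 1.61% higher and 5.91% lower. Removal of the 10 glial, vascular and interneuron clusters left 13, 10 of them among the 37. The higher genes were Col6a1, Rspo2, a secreted activator of Wnt signalling, Cwh43, a factor of lipid anchor remodelling, and Onecut2. Rspo2 stood at 60.5, 108, 14.5 and 57.2 CPM in units 0 to 3 against 6.62 to 13.7 CPM, from 20 UMIs. Unit 2 of the set lay just above the comparator and the other units well above it. The change was 2.54 ± 0.54 (adjusted p = 0.00305), and it was lost without unit 0, 1 or 3 and after the removal of those clusters (2.16, adjusted p = 0.131). Cwh43 stood at 86.4, 27.1, 102 and 71.5 CPM against 13.2 to 24.04 CPM (1.92 ± 0.46, adjusted p = 0.0162). It stayed called after the removal, at 1.83, and was lost without unit 0, 2 or 3. Onecut2 stood at 164, 94.95, 72.5 and 57.2 CPM against 28.8 to 43.6 CPM (1.48 ± 0.34, adjusted p = 0.00958). Its change was 0.36 after thinning to 1000 UMIs, and the call was lost without unit 0 or 1 and after the removal of those clusters (1.22, adjusted p = 0.285). Col6a1 rose by 1.49 ± 0.19 (adjusted p = 1.21e-11), was kept without each unit, and was lost at the gate of 3 UMIs from 3 genes (adjusted p = 0.196).

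Of the lower genes, interneuron genes made 7 of the calls out of 11 tested, with a median of -2.98 against -0.09 over all genes. The gate removed nuclei with Gad1 or Gad2, so this fall was built into the set. Slc32a1, the vesicular GABA transporter, had 0 UMIs against 347, at least 3.35-fold lower against a floor of 3 UMIs over the set. Sst had 10 UMIs, Npy 14, Vip 2 and Erbb4 2. Flt1, an endothelial receptor, was called at -1.34 although unit 2 of the set, at 406 CPM, lay above its comparator unit, and the change was 0.69 after the removal of the clusters. Col19a1, a collagen chain, fell by 2.54 on the log2 scale (SE 0.40, adjusted p = 9.11e-07), with 13.6 to 43.5 CPM against 124 to 162 CPM, and stayed called at -1.98 after the removal. The upper-layer genes Cux2, Rasgrf2 and Lamp5 were called at -1.35, -1.41 and -1.16 and stayed called after the removal. Without units 0, 1, 2 and 3 the calls numbered 2, 20, 80 and 6, and Col6a1 was among them each time.

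The markers of the name were read on these same sums. The rule removed nuclei with Syt6, Rprm, Foxp2, Fezf2, Otof or Scube1 from the set and not from the comparator, so low layer sums are in part fixed by the rule, and the sums were not taken under equal exclusions. The 11 excitatory genes other than Slc17a7 summed to 3087 to 4071 CPM against 3591 to 3719 CPM in all other cortical nuclei, which overlapped, and Slc17a7 itself was seen in 69 of 150 members. Upper-layer genes summed to 709 to 895 CPM against 1264 to 1391 CPM, apart in every unit. Layer 6 intratelencephalic genes summed to 174 to 190 CPM against 114 to 164 CPM, and without Cdh9 they overlapped, at 67.8 to 143 CPM against 84.1 to 123.2 CPM. Corticothalamic genes overlapped (290 to 672 CPM against 539 to 604 CPM). Layer 6b and subplate genes overlapped at 40.7 to 130.4 CPM against 128.5 to 139.0 CPM, with Nxph4, Moxd1 and Lpar1 at 0 in the set. With Cdh9 left out, none of the 7 deep-layer lists was higher in the set with its units apart from all other cortical nuclei. In glial, vascular or interneuron clusters lay 24 members, a smaller part than of the other cortical nuclei. The rule barred Gad1 and Gad2 UMIs from the set only, so this smaller part was in part fixed in advance and is no evidence for the name.

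The genes around the gate receptors gave few calls. Of the relaxin family 5 genes were in the table, and the set held 4 UMIs, all of Insl5, a ligand of another relaxin receptor. Rxfp2, Rxfp3, Rln1 and Insl3 were at 0. Of these, Rxfp2, Rln1 and Insl3 were at 0 in the Syt6/Foxp2 nuclei too, and Rln1 and Insl3 in the other excitatory nuclei. Of 7 opioid genes Oprm1, Pdyn and Pnoc were at 0 in the set, which includes Pdyn, the precursor of the dynorphins. Oprm1 and Pdyn were at 0 in the Syt6/Foxp2 nuclei too, whereas none of the 7 was at 0 in the more numerous other excitatory nuclei. The list summed to 62.6 to 88.1 CPM against 34.9 to 73.4 CPM in the other excitatory nuclei, with overlap. The nociceptin receptor Oprl1 had 10 UMIs, the enkephalin precursor Penk 7 and the delta receptor Oprd1 4, and the 3 tested against all other nuclei had adjusted p-values of 0.974 or more.

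G protein signalling genes downstream of such receptors gave 0 calls among 9 tested against Syt6/Foxp2 nuclei by edgeR, with 4 at an unadjusted p under 0.05, 8 of 9 negative and a median of -0.48. Their sum was 2140 to 2434 CPM against 2816 to 2865 CPM, apart in every unit. Pde1a, a calmodulin-dependent phosphodiesterase, was at 193 to 263 CPM against 267 to 438 CPM (adjusted p = 0.245). Adcy1, a calcium-stimulated adenylyl cyclase, was at 48.1 to 236 CPM against 194 to 327 CPM, with overlap (adjusted p = 0.127). Against the other excitatory nuclei 16 were tested with 0 calls, 4 at an unadjusted p under 0.05 and a median of -0.15. There Rgs4, a regulator that shortens G protein signals, was at 159, 112, 156 and 103 CPM against 232, 240, 306 and 294 CPM, apart in every unit (-0.95 ± 0.23, adjusted p = 0.0586). It passed against all other cortical nuclei, at -0.93 ± 0.23 (adjusted p = 0.0195), the only call of 22 tested there.

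The pathways of the other gate genes showed as little. BMP ligands, receptors, inhibitors and targets gave 0 calls of 7 tested against the other excitatory nuclei by edgeR, with 1 at an unadjusted p under 0.05 and a median of -0.05. ADAMTS and matrix genes gave 0 of 3 there, with 2 at an unadjusted p under 0.05. Acan, the main perineuronal net proteoglycan, was at 0 in the set, in the other excitatory nuclei and in the Syt6/Foxp2 nuclei alike. Synaptic adhesion genes gave 1 call of 9 against Syt6/Foxp2 nuclei, Tenm4, at 160 to 334 CPM against 94.9 to 153 CPM. Lrrtm2 and Ptprd were lower in every unit and missed the threshold (adjusted p = 0.160 and 0.118). Of 20 cadherin genes 3 passed the count filter there, and 2 of these were called against 1.02% of all genes tested, Cdh10 higher and Pcdh9 lower. The Cdh10 call was kept in 1 of 7 alternatives that tested it and the Pcdh9 call in 7 of 15. Potassium channel, sodium and calcium channel and ionotropic glutamate receptor genes gave 0 calls in all 3 comparisons, of 8, 11 and 7 genes tested against Syt6/Foxp2 nuclei, with 2, 3 and 2 at an unadjusted p under 0.05. The largest of these, Cacna1a, a P/Q-type calcium channel, was at 64.1 to 285 CPM against 179 to 336 CPM (-0.73 ± 0.26, adjusted p = 0.186).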

How the data were processed

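The values in the deposited table were taken as unnormalized UMI counts, since they are whole numbers and nuclei sum to unequal totals. Per the submitters' processing notes, STAR 2.4.0a24, Seurat and mm10 were used; the sources used here do not give how UMIs were collapsed, whether introns or strand were counted, or how nuclei were chosen. Of 13313 columns, 1689 carry a name start that matches no sample label and were not used. The table holds 23589 genes.

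The members and gene lists were chosen with earlier results of these data known. UMIs were summed per unit and set and tested in R 4.3.3 by the quasi-likelihood test of edgeR 4.0.16, after filterByExpr and TMM scaling, with p-values adjusted by Benjamini-Hochberg over every gene fitted. The unit was a block because both sets of a unit came from the same libraries. The test weighs each gene's own spread, with 3 degrees of freedom, together with a spread pooled over genes. The pooled part had 41.5 degrees of freedom against Syt6/Foxp2 nuclei, 57.8 against other excitatory nuclei and an infinite number against all others. A small p-value therefore does not show that a gene's own units were alike. Gate genes and the genes that define a set were left out of the tests. The planned Syt6/Foxp2 set (2 genes of 3) held 38 nuclei and as few as 6 per unit, under the planned 20, so 1 gene was required instead; this was decided after the counts were seen, and the narrower set is an alternative. The genes named were the largest called changes per direction with units apart, at least 20 CPM and no predicted name (12, 12 and 6 per comparison), plus up to 4 per list with the smallest p and any list gene called. Cdh9, Galnt14, Tle4, Hs3st4 and the called genes outside that rule were named after their values were seen.

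Clusters were made in scanpy 1.11.5 and leidenalg 0.10.2 (counts scaled to 10000, 2000 variable genes, 40 components, 20 neighbours, resolution 1.5). Doublets were kept and removed in an alternative. On simulated counts with 200 genes changed by 1 or 2 on the log2 scale, the test recovered 70.5% and 98.0% against Syt6/Foxp2 nuclei, 38.5% and 94.0% against other excitatory nuclei and 21.0% and 75.5% against all others, with false calls at 0.529% to 5.62% of calls. The simulated counts were drawn from the fitted model, with each unchanged gene at the same level in all units. These rates therefore hold only for data that follow the model. Positions come from a GENCODE annotation of mm10, which matched 107 of 109 genes by symbol. Alternatives were DESeq2 1.42.0, no filter, no block, each unit left out, 5 libraries apart, a depth window of 1000 to 3000 UMIs, thinning to 1000, doublets removed, a stricter gate, nuclei with glial or vascular UMIs removed and, added after the data were seen, the gate without Rasl10a, comparators under the same exclusions, and glial, vascular and interneuron clusters removed.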

Additional observations from a re-analysis of the deposited data

Results flagged for a closer look

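Among 64 groups of 4 units examined, 6 had a unit far from the other 3. Chance alone gives about 1 in 20 for normally distributed values. A gene at 0 in 3 units and seen in the fourth is always flagged, so that rate does not hold for such genes. In 4 of the 6 groups a gene was at 0 in 3 units of the Rxfp1/Oprk1 nuclei and had 1 or 2 UMIs in the fourth: Dlx6os1 at 13.6 CPM in unit 1, Hbb-bt at 13.6 CPM in unit 1, Hba-a2 at 8.64 CPM in unit 0 and Vip at 17.3 CPM in unit 0. Slc30a3 was at 163 CPM in unit 2 of the Syt6/Foxp2 nuclei, against 63.3 to 72.9 CPM in units 0, 1 and 3. The share of Rxfp1/Oprk1 nuclei was 2.64% in unit 3, against 2.46% to 2.48% in the others, which is within the counting interval of every unit. In hippocampus, which entered none of the tests, 0.4595% of nuclei met the gate.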

How the results depend on the processing

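Against Syt6/Foxp2 nuclei the 18 calls became 3 with no replicate block, 0 by DESeq2, 7 after thinning to 1000 UMIs, 2 with the stricter gate, 28 without the glial, vascular and interneuron clusters, 6 with the narrower Syt6/Foxp2 set and 5 with Syt6/Foxp2 nuclei of any gate UMIs, and leaving out 1 unit gave 1 to 48. Against other excitatory nuclei the 9 calls became 1 with no replicate block, 1 by DESeq2, 19 without the filter, 5 in the depth window, 4 after thinning, 4 with the stricter gate and 1 without nuclei that held glial or vascular UMIs, and leaving out 1 unit gave 1 to 15. Against all other nuclei the 37 calls became 3 with no replicate block, 3 by DESeq2, 20 after thinning, 82 without doublet calls, 19 with the stricter gate, 7 without nuclei that held glial or vascular UMIs, 61 with the gate without Rasl10a and 13 without those clusters, and leaving out 1 unit gave 2 to 80. The cause was not tested. The mean share was 1.569% after thinning, 0.3706% with the stricter gate, 2.265% without doublet calls and 2.469% to 2.529% with 1 unit left out. The richest cluster held 5.65% members at resolution 1.0. Signs reversed for 3 genes called against all other nuclei: Cxcl12 (0.22, nuclei with glial or vascular UMIs removed), Flt1 (0.69) and Npy (0.26, both with those clusters removed). None of the 18, 9 or 37 genes was called under all of its alternatives, and Col6a1 came nearest, called in 15 of 16 against other excitatory and against all other nuclei.

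Depth limits what can be seen: the set holds 326163 UMIs, so a gene at 20 CPM rests on few UMIs per unit, and a change of 1 on the log2 scale was recovered in 38.5% of simulated cases against other excitatory nuclei. A gene not called is not shown to be equal.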
